A study of Homo sapiens with 12 samples.

Results

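The transforming growth factor β (TGF-β) pathway was followed through 9 genes chosen by name: the ligands TGFB1, TGFB2 and TGFB3, the receptors TGFBR1, TGFBR2 and TGFBR3, the signal transducer SMAD3, its inhibitor SMAD7, and TGFBI, an extracellular matrix protein named for its induction by TGF-β. All 9 had a row of their own among the 60666 genes counted. RNA was sequenced from HT1376, an established human bladder cancer line. HT1376 CT is a clonal CRISPR control that carries a guide against luciferase (its libraries are labelled wild type), and HT1376 FOXP3 KO is a clonal line made with guides against exon 2 of FOXP3, the forkhead factor best known from regulatory T cells. Both lines went through lentiviral delivery and puromycin selection. Each was left untreated or was given 100 ng/mL interferon γ (IFNγ) over 48 hours. The 4 groups have 3 libraries apiece, numbered 11, 12 and 13. Since each genotype is 1 clone, a difference between the clones and a difference due to FOXP3 cannot be told apart.

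TGF-β is secreted in a latent form that integrins, proteases and thrombospondin release. The active ligand binds the type II receptor TGFBR2, which recruits and phosphorylates the type I receptor TGFBR1. The type III receptor TGFBR3 (betaglycan) is a co-receptor that presents ligand, TGF-β2 above all, and whose shed ectodomain can also sequester it. TGFBR1 phosphorylates SMAD2 and SMAD3, which enter the nucleus with SMAD4, and SMAD7 closes a negative feedback loop. In carcinoma cells the pathway is known for growth arrest early and for epithelial-to-mesenchymal transition (EMT) later.

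The libraries held 4490684 to 39270042 counts on genes. FOXP3 itself had at most 3 counts in any library, 2 over the HT1376 CT libraries and 6 over the HT1376 FOXP3 KO libraries, so its counts could not check the labels. Epithelial and urothelial markers summed to 4395 to 5677 normalized CPM (counts scaled to a common library size) in every library, with KRT8 (1154 to 1205 on average by group) and KRT18 (1119 to 1510) among the highest, whereas UPK3A was at 0 and UPK2 was near 0. This sum is carried by keratins, and of its 12 markers tested 3 were higher and 4 lower in untreated HT1376 FOXP3 KO (edgeR, adjusted p under 0.05). EPCAM was 3.80-fold lower (adjusted p = 4.59e-06), GATA3 lower (log2 -0.68, adjusted p = 0.000994) and E-cadherin (CDH1) 1.57-fold lower (adjusted p = 0.00152), while PPARG was 2.73-fold higher (adjusted p = 4.24e-05) and KRT7 1.93-fold higher (adjusted p = 0.00238). A list of 6 fibroblast markers summed to 24.5 to 63.6 normalized CPM in the HT1376 CT libraries and to 442 to 703 in the HT1376 FOXP3 KO libraries, mainly from COL1A2, DCN and LUM, while PDGFRA stayed near 0 and COL1A1 was lower in HT1376 FOXP3 KO. Leukocyte markers summed to at most 6.82 and endothelial markers to at most 1.83 normalized CPM. The part of these marker differences in the results below was not tested, and in bulk samples fewer cells of a type and less RNA per cell cannot be told apart.

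The genes lie on GRCh38 (GENCODE 44) as follows, all protein-coding: TGFB1 on chr19:41301587-41353922 (minus strand), TGFB2 on chr1:218345336-218444619 (plus), TGFB3 on chr14:75958097-75983011 (minus), TGFBR1 on chr9:99104038-99154192 (plus), TGFBR2 on chr3:30606601-30694142 (plus), TGFBR3 on chr1:91680343-91906335 (minus), SMAD3 on chr15:67063763-67195173 (plus), SMAD7 on chr18:48919853-48950965 (minus) and TGFBI on chr5:136028988-136063818 (plus). Counts were read over exons, UTRs included.

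Promoters are shown for the members with the largest differences between the lines and for the member that fell with IFNγ. Each line below gives the 100 bases just upstream of the start of the main transcript (RefSeq, GRCh38.p14), with CG dinucleotides in capitals.
TGFB1, chr19:41353923-41354022, minus strand: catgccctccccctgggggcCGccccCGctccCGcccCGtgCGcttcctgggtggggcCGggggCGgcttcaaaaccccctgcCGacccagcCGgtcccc
TGFB2, chr1:218345236-218345335, plus strand: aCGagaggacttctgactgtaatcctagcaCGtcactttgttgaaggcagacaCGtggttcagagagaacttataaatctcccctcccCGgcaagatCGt
TGFBR2, chr3:30606501-30606600, plus strand: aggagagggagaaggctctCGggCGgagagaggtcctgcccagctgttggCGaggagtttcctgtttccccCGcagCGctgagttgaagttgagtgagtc
TGFBR3, chr1:91886152-91886251, minus strand: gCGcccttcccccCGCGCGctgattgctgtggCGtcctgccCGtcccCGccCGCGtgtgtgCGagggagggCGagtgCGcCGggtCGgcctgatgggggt
TGFBI, chr5:136028888-136028987, plus strand: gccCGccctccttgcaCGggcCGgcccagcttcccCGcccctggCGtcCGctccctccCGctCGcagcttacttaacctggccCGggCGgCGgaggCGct

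TGFB1, TGFBR3 and TGFBI, which were several-fold higher in HT1376 FOXP3 KO, had 9, 14 and 12 CG dinucleotides in these 100 bases, and TGFB2 and TGFBR2 had 5 each. The highest number, 16, was that of TGFBR1, which was lower in HT1376 FOXP3 KO, and SMAD3, which did not pass between the lines, had 12. SMAD7 had 7 and TGFB3 had 3. Over whole promoter windows of 250 bases before and 50 after the start, SMAD3 held 44, TGFBR1 40, TGFBR3 34, TGFB1 28, TGFBI 27, TGFBR2 23, TGFB2 14, SMAD7 13 and TGFB3 11, and the median of 35116 RefSeq promoters was 14. The number of CG dinucleotides thus did not follow the direction of the difference between the lines. TGFB2 and TGFB3 carried TATAAA on the sense strand at -29 and -30 from the start, as 2.63% of all promoters did within 50 bases upstream of the start. The short SMAD box CAGAC, searched on both strands as all motifs that follow, was present in 45.3% of promoters and in the main promoter of TGFB2, TGFBR1, SMAD3 and SMAD7. SMAD7, the feedback gene of the pathway, and TGFB2 carried it at 2 places each. The boxes nearest the start are in capitals in these 2 stretches.
SMAD7, chr18:48951069-48951113, minus strand: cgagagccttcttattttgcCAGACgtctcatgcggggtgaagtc
TGFB2, chr1:218345263-218345307, plus strand: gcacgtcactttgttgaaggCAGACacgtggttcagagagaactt

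They lie 128 and 53 bases upstream of the start. The SMAD palindrome GTCTAGAC (0.202% of promoters), the forkhead motif TGTTTAC (3.42%) and the STAT motif TTCNNNGAA (7.66%) were in none of the 9 main promoters. The AP-1 motif TGANTCA (7.71%) was in that of TGFBR2, where it spans the start. These matches describe letters in a window and not bound sites. The paper also lists A/G T/C AAACA as a FOXP3 binding motif. Of its forms, only GTAAACA, the reverse complement of TGTTTAC, was covered by the forkhead search. The absence of TGTTTAC therefore does not show that FOXP3 motifs were absent from these promoters.

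Between the untreated lines, 7 of the 9 genes differed (adjusted p under 0.05 over all genes tested, edgeR's quasi-likelihood test): TGFB1, TGFBR3, SMAD7 and TGFBI were higher and TGFB2, TGFBR1 and TGFBR2 lower in HT1376 FOXP3 KO. Of all 25320 genes tested, 32.1% differed, 14.0% higher and 18.2% lower, and 42.5% of the 15665 with a mean of at least 1 normalized CPM did. With IFNγ in both lines, 6 of the 9 differed, against 28.9% of all 24388 genes (13.2% higher, 15.7% lower). The same genes as in untreated cells except SMAD7 passed, with TGFB2 now higher. IFNγ changed 1 of the 9, TGFB2, in HT1376 CT, where 5.35% of 24416 genes changed (1.82% lower). It changed none in HT1376 FOXP3 KO by the same test, where 0.982% of 24131 genes changed and none of the 9 had an unadjusted p under 0.05. These fits take no account of the replicate number. With the number as a block, TGFB2, TGFBR3 and TGFBI passed for IFNγ in HT1376 CT, where 4530 of 24416 genes did. In HT1376 FOXP3 KO none of the 9 passed with the block, where 1334 of 24131 genes did. The plot of the levels in each library shows these groups, and the plot of fold changes shows the 4 comparisons side by side. The comparisons share their libraries.

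**Figure D1:**
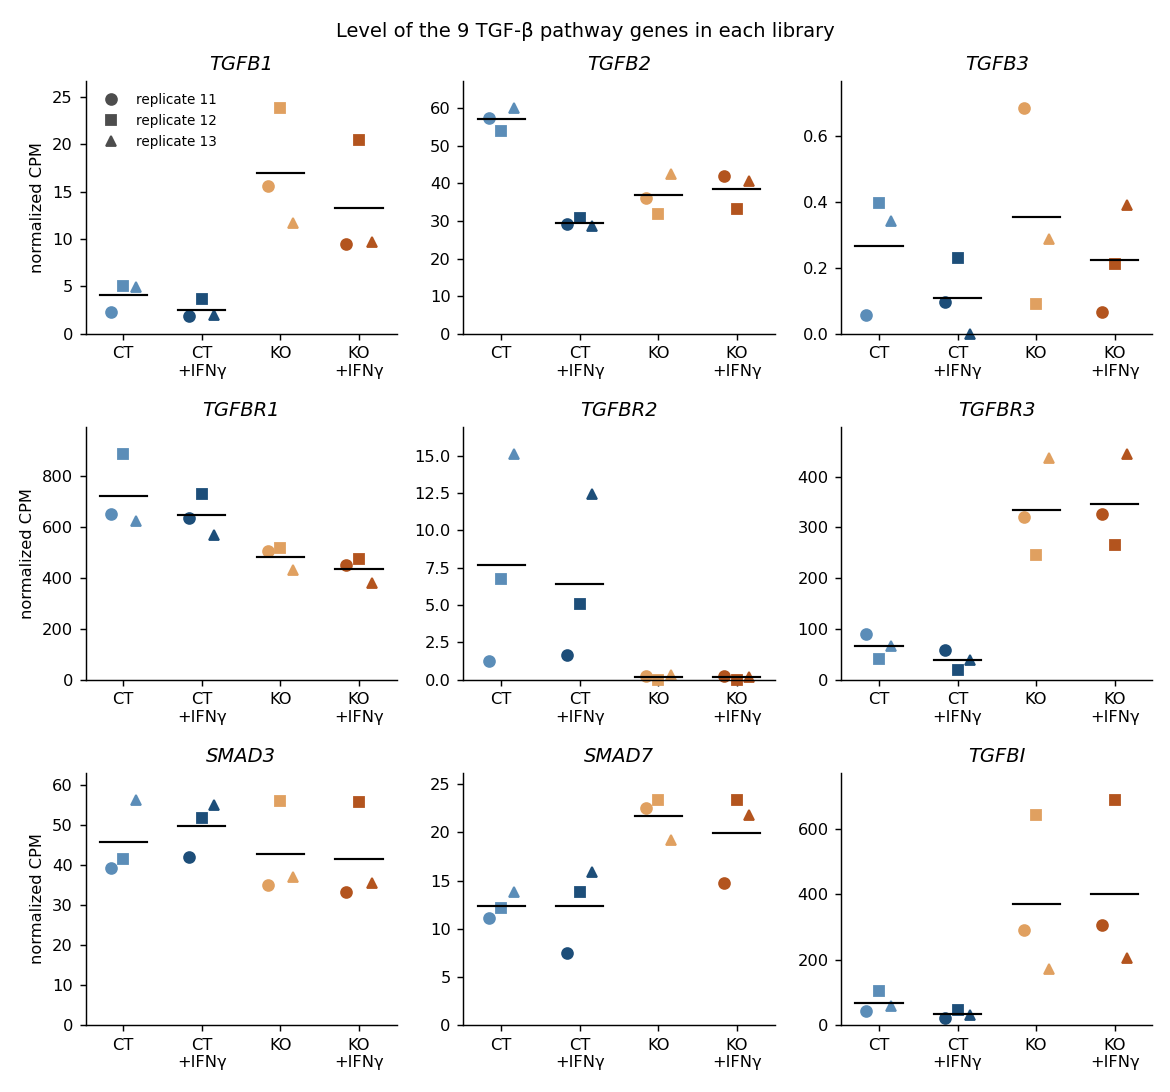
Normalized CPM (linear axis from 0) of the 9 genes in each of the 12 libraries, by group. Points are libraries, with the replicate number as the shape, and black bars are group means. TGFB1, TGFBR3 and TGFBI of HT1376 FOXP3 KO (KO) lie above every HT1376 CT (CT) library, TGFBR2 lies below, and TGFB2 of CT falls with IFNγ.

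**Figure D2:**
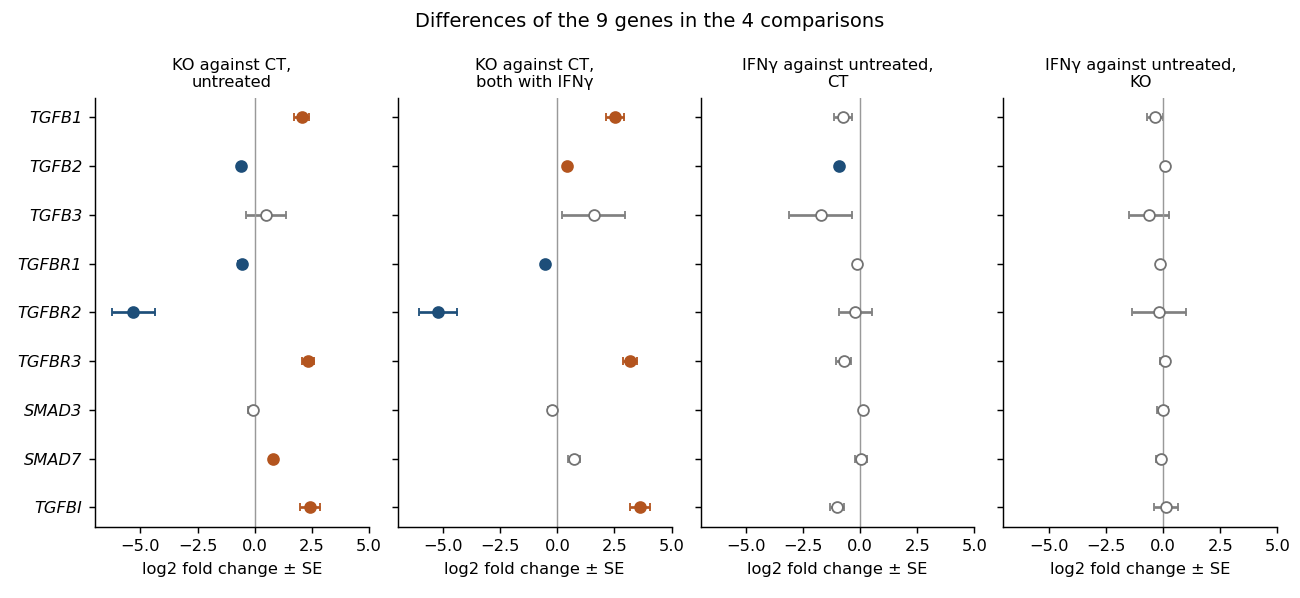
Log2 fold change with its SE from edgeR for each gene in the 4 comparisons, 3 libraries against 3. Filled points passed the adjusted p threshold of 0.05 (orange higher, blue lower in the first-named group) and open points did not. TGFBR2 stands at -5.31 and -5.24 between the lines, and TGFB2 is filled in 3 of the 4 comparisons.

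Among the ligands, TGFB1, the most widely expressed TGF-β, was low in HT1376 CT and several-fold higher in HT1376 FOXP3 KO. Untreated HT1376 CT libraries 11, 12 and 13 had 2.28, 5.0 and 4.89 normalized CPM and HT1376 FOXP3 KO libraries 15.5, 23.8 and 11.7. With IFNγ the levels were 1.84, 3.69 and 2.01 in HT1376 CT and 9.49, 20.5 and 9.72 in HT1376 FOXP3 KO. The lines did not overlap with or without IFNγ, and library 12 was the highest in each of the 4 groups. TGFB1 was 4.20-fold higher in untreated HT1376 FOXP3 KO (log2 2.07 ± 0.33 SE, adjusted p = 0.000741) and 5.79-fold higher under IFNγ (log2 2.53 ± 0.40, adjusted p = 0.000699). The IFNγ-treated and untreated libraries overlapped in both lines, with log2 fold changes of -0.76 (adjusted p = 0.375) in HT1376 CT and -0.36 (adjusted p = 0.999) in HT1376 FOXP3 KO. TGFB1 is annotated over genes on the opposite strand and shares 215 exon bases with HNRNPUL1, and the strand setting of the counting is not given in the sources used here. HNRNPUL1 did not pass between the lines, at log2 fold changes of -0.07 (untreated) and 0.09 (IFNγ).

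TGFB2, the ligand that depends most on betaglycan for binding, was the member with the clearest IFNγ response, and this response was seen in HT1376 CT. Its libraries fell from 57.3, 53.9 and 59.99 normalized CPM to 29.2, 30.7 and 28.6. In HT1376 FOXP3 KO the levels were 36.0, 31.8 and 42.4 untreated and 41.9, 33.2 and 40.6 with IFNγ. Treated and untreated libraries were thus apart in HT1376 CT and overlapped in HT1376 FOXP3 KO, whose levels lay between those of both HT1376 CT groups. The fall in HT1376 CT was 1.91-fold (log2 -0.93 ± 0.12, adjusted p = 0.00059), with log2 ratios of -0.97, -0.81 and -1.07 within numbers 11, 12 and 13. The HT1376 FOXP3 KO log2 fold change was 0.09 ± 0.14 (adjusted p = 0.999). The test of the difference itself, the interaction of line and IFNγ over the 12 libraries, gave log2 1.01 ± 0.19 with an unadjusted p of 7.33e-05 and an adjusted p of 0.0617, short of the threshold. By this test 0.111% of 27806 genes passed (0.00360% higher, 0.108% lower), and none of the 9 did. With the replicate number as a block the TGFB2 interaction passed (log2 1.03, adjusted p = 0.000475), and over its 8 alternatives in which no single library was dropped the adjusted p ranged from 6.21e-05 to 0.0707. With 1 library left out it passed in only 3 of 12 runs (log2 0.99 to 1.17, adjusted p = 0.0204 to 0.148).

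Between the lines, TGFB2 went opposite ways without and with IFNγ. It was 1.53-fold lower in untreated HT1376 FOXP3 KO (log2 -0.62 ± 0.13, adjusted p = 0.00395). Under IFNγ it was 1.35-fold higher (log2 0.43 ± 0.15, adjusted p = 0.0471). The untreated difference passed when any 1 library was left out. The difference under IFNγ did not pass without HT1376 CT library 11, 12 or 13 (log2 0.42, 0.47 and 0.42, adjusted p = 0.12, 0.0509 and 0.123) or without HT1376 FOXP3 KO library 11 or 13 (log2 0.36 and 0.42, adjusted p = 0.179 and 0.11), nor when low counts were kept (log2 0.45, adjusted p = 0.0606). The antisense gene TGFB2-AS1 shares 701 exon bases with TGFB2 but had 111 counts over all libraries, against 8991 for TGFB2.

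**Figure D3:**
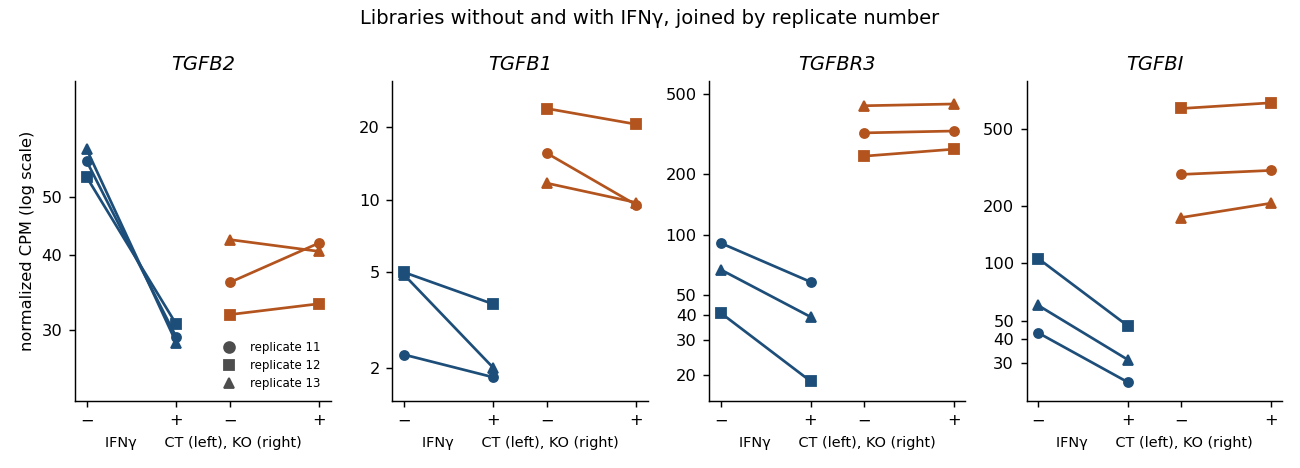
Normalized CPM (log axis) of TGFB2, TGFB1, TGFBR3 and TGFBI without (−) and with (+) IFNγ, with lines joining libraries of the same replicate number. Within HT1376 CT (blue) all 3 numbers are lower with IFNγ for each of the 4 genes. Within HT1376 FOXP3 KO (orange) all 3 numbers are lower with IFNγ for TGFB1, and TGFB2 stays between 31.8 and 42.4.

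TGFB3, the third isoform, was barely detected, with 0 to 16 counts per library. Its levels were 0.0585 to 0.397 normalized CPM in untreated HT1376 CT, 0 to 0.231 with IFNγ, 0.0892 to 0.685 in HT1376 FOXP3 KO and 0.0669 to 0.391 with IFNγ, and all groups overlapped. The log2 fold changes between the lines, 0.50 ± 0.87 (adjusted p = 0.707) and 1.58 ± 1.37 under IFNγ (adjusted p = 0.434), could not be read at this depth.

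To set the ligands side by side, levels were computed per length, as TPM (transcripts scaled by exon length to a common total). TGFB2 made up 88.0% ± 4.40 (SD, n = 3) of the summed TGFB1, TGFB2 and TGFB3 TPM in untreated HT1376 CT and 54.2% ± 12.0 in HT1376 FOXP3 KO. TGFB1 made up 6.87%, 14.6% and 13.1% in libraries 11, 12 and 13 of HT1376 CT and 43.9%, 58.0% and 33.6% in HT1376 FOXP3 KO. With IFNγ the TGFB1 share was 13.3% ± 4.16 and 37.7% ± 13.4. The shares of the lines did not overlap (two-sided exact permutation test, p = 0.1, below which 3 libraries against 3 cannot go). The ligand sum, by contrast, overlapped between the untreated lines, at 38.4 ± 1.92 TPM in HT1376 CT and 42.4 ± 6.30 in HT1376 FOXP3 KO (exact p = 0.5). It was 19.6 ± 2.42 TPM in HT1376 CT with IFNγ, without overlap with the untreated libraries (exact p = 0.1), and 38.5 ± 5.84 in HT1376 FOXP3 KO with IFNγ (exact p = 0.5 against untreated).

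**Figure D4:**
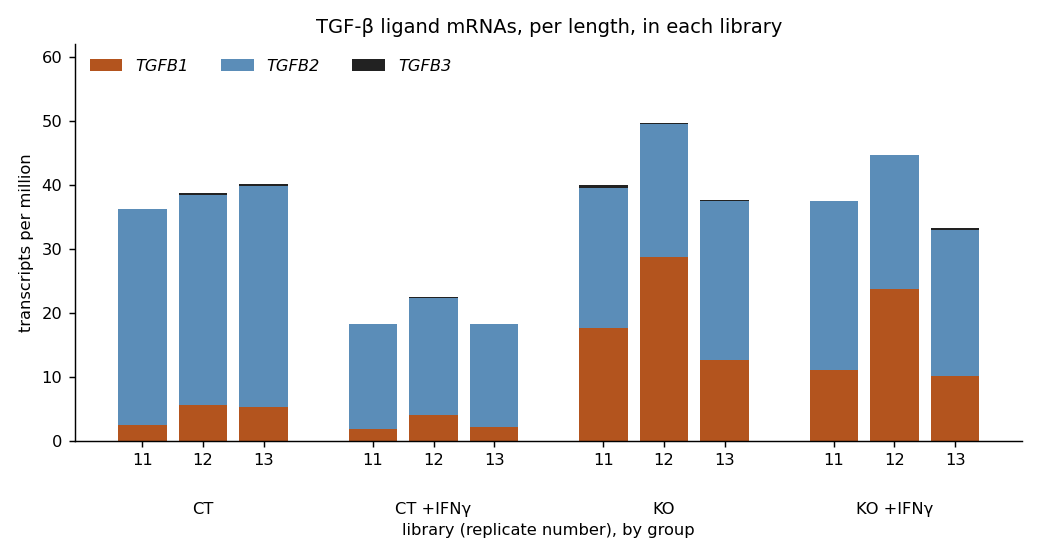
Stacked TPM of the 3 ligand mRNAs in each library (bars start at 0), by group and replicate number. Untreated HT1376 CT and HT1376 FOXP3 KO reach sums of 36.3 to 49.6 TPM with unlike shares of TGFB1 (orange) and TGFB2 (blue), and HT1376 CT with IFNγ reaches 18.2 to 22.4.

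Among the receptors, TGFBR2, the ligand-binding kinase, was close to absent from HT1376 FOXP3 KO. The untreated HT1376 CT libraries had 21, 85 and 572 counts, or 1.23, 6.75 and 15.1 normalized CPM, and with IFNγ 17, 22 and 223 counts, or 1.65, 5.08 and 12.5 normalized CPM. HT1376 FOXP3 KO had 5, 0 and 5 counts untreated and 4, 0 and 5 with IFNγ, at most 0.288 normalized CPM. Each HT1376 CT library was above every HT1376 FOXP3 KO library, although the HT1376 CT libraries differed widely among themselves, with library 13 the highest and library 11 the lowest in both conditions. Untreated library 12 of HT1376 FOXP3 KO had 0 counts, and 3 counts there would be 0.286 CPM before normalization. The 10 counts over untreated HT1376 FOXP3 KO have an exact Poisson 95% interval of 4.8 to 18.4. This interval covers counting error only. The fitted log2 fold changes were -5.31 ± 0.93 (adjusted p = 0.00125) and -5.24 ± 0.84 under IFNγ (adjusted p = 0.00073), and passed without any 1 library, ranging from -5.77 to -4.31 and from -5.72 to -4.23. IFNγ left TGFBR2 without a called change in both lines.

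TGFBR1, the type I kinase, had the highest mean per-length level of all members in each group, at 323 ± 74.1 TPM in untreated HT1376 CT against 3.99 ± 3.55 for TGFBR2. In HT1376 FOXP3 KO it overlapped TGFBI without and with IFNγ. With IFNγ, TGFBR1 spanned 162 to 225 TPM there and TGFBI 90.7 to 338. The TGFBR1 libraries had 649, 887 and 624 normalized CPM in untreated HT1376 CT and 504, 515 and 430 in HT1376 FOXP3 KO. With IFNγ they had 636, 729 and 570 and then 450, 474 and 380. The lines did not overlap in either condition. TGFBR1 was 1.47-fold lower in untreated HT1376 FOXP3 KO (log2 -0.56 ± 0.15, adjusted p = 0.0133) and 1.44-fold lower with IFNγ (log2 -0.53 ± 0.14, adjusted p = 0.0144). The untreated call was lost without HT1376 CT library 12 (log2 -0.35, adjusted p = 0.0632), HT1376 FOXP3 KO library 11 (-0.55, 0.0515) or 13 (-0.43, 0.0687). The call under IFNγ was lost without HT1376 CT library 12 (-0.42, 0.0517) or HT1376 FOXP3 KO library 13 (-0.42, 0.0583). Per 100 TGFBR1 transcripts (TPM ratio), TGFBR2 stood at 1.31 ± 1.35 in untreated HT1376 CT and 0.0426 ± 0.0395 in HT1376 FOXP3 KO.

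TGFBR3, betaglycan, went the other way. Its libraries had 90.5, 40.7 and 66.8 normalized CPM in untreated HT1376 CT and 320, 245 and 436 in HT1376 FOXP3 KO. With IFNγ they had 58.2, 18.7 and 39.0 in HT1376 CT and 326, 265 and 445 in HT1376 FOXP3 KO. The lines were far apart in both conditions, and library 12 was the lowest in each group. TGFBR3 was 5.10-fold higher in untreated HT1376 FOXP3 KO (log2 2.35 ± 0.27, adjusted p = 7.54e-05) and 9.06-fold higher under IFNγ (log2 3.18 ± 0.33, adjusted p = 3.02e-05). Its TPM ratio to TGFBR1 was 0.0907 ± 0.0443 in untreated HT1376 CT and 0.659 ± 0.257 in HT1376 FOXP3 KO, without overlap (exact p = 0.1). Its IFNγ log2 fold change came to -0.73 ± 0.34 in HT1376 CT (adjusted p = 0.293, groups overlapping), but -0.64, -1.12 and -0.77 within numbers 11, 12 and 13, and with the replicate number as a block it passed (-0.77, adjusted p = 1.23e-12, and 0.000181 when the bias-adjusted deviance joined the block). The HT1376 FOXP3 KO value was 0.07 ± 0.21 (adjusted p = 0.999). The interaction was 0.79 ± 0.47 (adjusted p = 0.889).

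Of the intracellular members, SMAD3, the transducer that TGFBR1 activates, passed in none of the 4 comparisons, and its groups overlapped. The untreated libraries had 39.3, 41.5 and 56.3 normalized CPM in HT1376 CT and 34.9, 56.0 and 37.0 in HT1376 FOXP3 KO. With IFNγ they had 42.1, 51.7 and 55.1 and then 33.2, 55.8 and 35.4. The log2 fold changes between the lines were -0.09 ± 0.20 (adjusted p = 0.772) and -0.22 ± 0.21 under IFNγ (adjusted p = 0.479). Library 12 was the highest in both HT1376 FOXP3 KO groups, and without it the IFNγ-treated lines differed (log2 -0.50, adjusted p = 0.0367).

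SMAD7, which blocks TGFBR1 and recruits ubiquitin ligases to it, was higher in HT1376 FOXP3 KO. The untreated libraries had 11.1, 12.2 and 13.8 normalized CPM in HT1376 CT and 22.5, 23.4 and 19.2 in HT1376 FOXP3 KO, without overlap. With IFNγ they had 7.45, 13.8 and 15.9 and then 14.7, 23.4 and 21.8, and the lowest HT1376 FOXP3 KO library lay below the highest of HT1376 CT. SMAD7 was 1.77-fold higher untreated (log2 0.83 ± 0.16, adjusted p = 0.00225). Under IFNγ the log2 fold change of 0.73 ± 0.28 missed the threshold (adjusted p = 0.0782) and passed with the replicate block (0.75, adjusted p = 0.00281), and across its 9 alternatives with no single library dropped the adjusted p was 0.00281 to 0.133. It passed in none of the 6 runs with 1 library left out (log2 0.446 to 0.999, adjusted p = 0.0577 to 0.222). The TPM ratio of SMAD7 to SMAD3 was 0.694 ± 0.0646 in untreated HT1376 CT and 1.34 ± 0.288 in HT1376 FOXP3 KO, and 0.62 ± 0.15 and 1.25 ± 0.269 with IFNγ. These ratios did not overlap between the lines (exact p = 0.1 in both conditions).

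TGFBI, the secreted matrix protein, was several-fold higher in HT1376 FOXP3 KO, as TGFBR3 was. The untreated libraries had 43.3, 106 and 60.2 normalized CPM in HT1376 CT and 291, 643 and 173 in HT1376 FOXP3 KO. With IFNγ they had 23.9, 47.1 and 31.3 and then 305, 689 and 206. The lines did not overlap, and library 12 was the highest in each group. TGFBI was 5.38-fold higher in untreated HT1376 FOXP3 KO (log2 2.43 ± 0.45, adjusted p = 0.00176) and 12.3-fold higher under IFNγ (log2 3.62 ± 0.43, adjusted p = 8.51e-05). Its IFNγ log2 fold change came to -1.03 ± 0.31 in HT1376 CT (adjusted p = 0.0918, groups overlapping), with ratios of -0.85, -1.17 and -0.94 within numbers 11, 12 and 13. It passed with the replicate block (-0.96, adjusted p = 3.14e-19, and 1.78e-05 when the bias-adjusted deviance joined the block), without untreated library 11 (-1.27, adjusted p = 0.036), without IFNγ library 12 (-1.31, adjusted p = 0.0429) and without both libraries numbered 12 (-0.88, adjusted p = 0.0316). The HT1376 FOXP3 KO log2 fold change was 0.13 ± 0.52 (adjusted p = 0.999). The interaction was 1.16 ± 0.67 (adjusted p = 0.875), and 1.08 with the block (adjusted p = 0.0137), a call that was lost when the bias-adjusted deviance joined the block (1.07, adjusted p = 0.0919).

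By per-length level the order of the members in untreated HT1376 CT was TGFBR1 (323 TPM), TGFB2 (33.7), TGFBI (32.5), TGFBR3 (27.4), SMAD3 (16.3), SMAD7 (11.2), TGFB1 (4.45), TGFBR2 (3.99) and TGFB3 (0.183). TGFB2, TGFBI and TGFBR3 overlapped there, as did TGFBR3 and SMAD3, and TGFB1 and TGFBR2. In untreated HT1376 FOXP3 KO it was TGFBR1 (226 TPM), TGFBI (182), TGFBR3 (143), TGFB2 (22.5), SMAD7 (20.5), TGFB1 (19.7), SMAD3 (16), TGFB3 (0.249) and TGFBR2 (0.088). TGFBI spread from 79.5 to 329 TPM and overlapped TGFBR1 and TGFBR3. TGFB2, SMAD7, TGFB1 and SMAD3 overlapped one another, as did TGFB3 and TGFBR2.

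The genes whose pattern over the 12 libraries was most like each member were taken by the root mean square difference of centred log2 normalized CPM, among genes with a mean of at least 1 normalized CPM. This measure was 0.28 for TGFB1 and TPT1P10, 0.30 for TGFB1 and CMTM3, 0.16 for TGFB2 and CCNB2, 0.11 for TGFBR1 and NRBP2, 0.61 for TGFBR2 and NRP1, 0.26 for TGFBR3 and FAM49A, 0.15 for SMAD3 and SERTAD1, 0.19 for SMAD7 and SLC8B1, and 0.38 for TGFBI and MYB. For comparison, the SD of a member over the 12 libraries ran from 0.30 for SMAD3 to 2.55 for TGFBR2 on the same log2 scale, so a small difference says little for members that varied little. ID4, a target of the related BMP pathway, was also among the 3 nearest to TGFBR3 (0.30). For TGFB3 the nearest gene lay at 0.52 (LINC01144).

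The wider pathway was read from 6 lists. Between the untreated lines, over all genes 14.0% were higher and 18.2% lower, and the median log2 fold change was -0.02. Under IFNγ the shares were 13.2% and 15.7%, and the median was 0.02. Medians of the lists ranged from -0.89 (other ligands) to 0.06 (SMADs and cofactors) untreated. Each list held genes that passed in both directions, as the plot of the pathway lists shows.

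**Figure D5:**
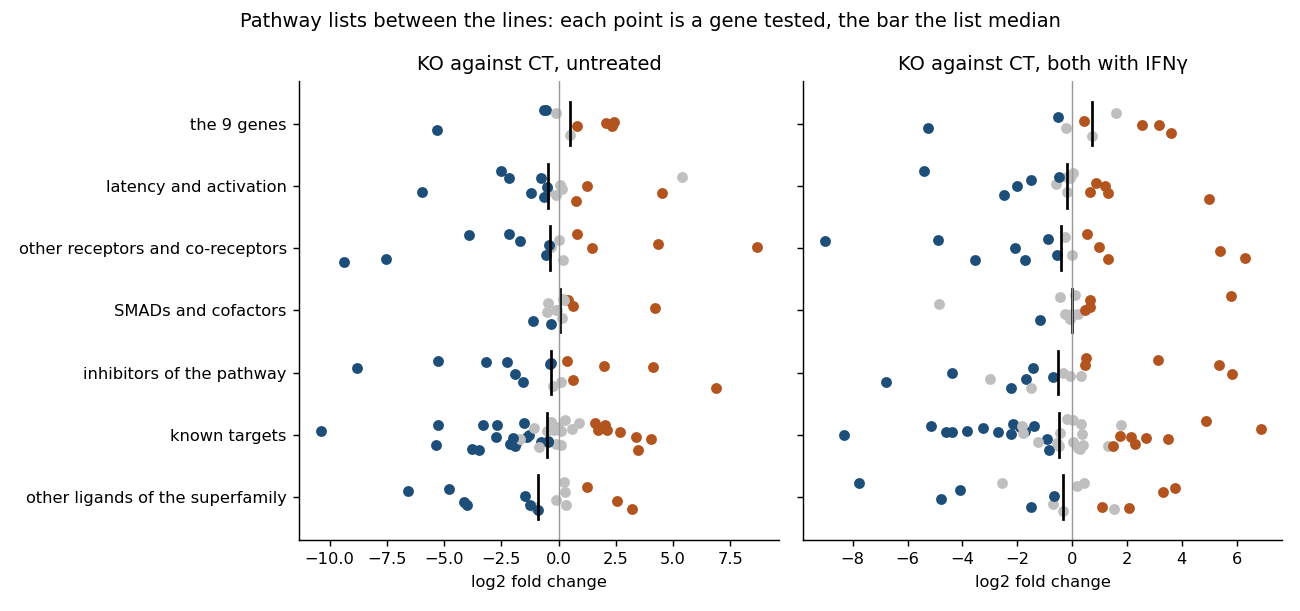
Log2 fold change of each tested gene of the 9 members and the 6 pathway lists, HT1376 FOXP3 KO (KO) against HT1376 CT (CT), untreated and with IFNγ. Orange points passed as higher, blue as lower, and grey points did not pass (edgeR, adjusted p threshold 0.05). Black bars are list medians, and each list holds orange and blue points in both panels.

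Of the genes that hold TGF-β latent or release it, 3 of 15 tested were higher and 7 lower in untreated HT1376 FOXP3 KO, with a median of -0.44, and 5 were higher and 5 lower of 15 under IFNγ. THBS1, the thrombospondin that activates latent TGF-β, was 62.3-fold lower (14.4 against 921 normalized CPM, adjusted p = 4.69e-06). PLAU, the urokinase that starts plasmin formation, was 5.64-fold lower (adjusted p = 3.82e-05), FURIN, the protease that cleaves the TGF-β precursor, 4.45-fold lower (adjusted p = 1.17e-05), and the integrin subunit ITGB8 2.31-fold lower (adjusted p = 0.000492). The membrane protease MMP14 was 2.37-fold higher (adjusted p = 8.13e-05) and the latent TGF-β binding protein LTBP1 1.71-fold higher (adjusted p = 0.00788). These 6 genes went the same way under IFNγ, where THBS1 was 42.7-fold lower (adjusted p = 2.49e-06).

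Of the other receptors and co-receptors, 4 of 14 were higher and 7 lower untreated (median -0.38), and 5 and 7 of 14 under IFNγ. BMPR1B, a type I BMP receptor, was 20.2-fold higher (6.13 against 0.29 normalized CPM, adjusted p = 0.000144) and the activin receptor ACVR2B 2.72-fold higher (adjusted p = 2.08e-05). BAMBI, a decoy receptor and TGF-β target, was 15.1-fold lower at a low level (0.287 against 4.89 normalized CPM, adjusted p = 0.000266). Endoglin (ENG) was 4.50-fold lower (adjusted p = 1.32e-05) and ACVRL1, the receptor that works with endoglin, 3.18-fold lower (adjusted p = 0.0064). The activin receptors ACVR2A (1.74-fold higher, adjusted p = 0.0208) and ACVR1B (1.45-fold lower, adjusted p = 0.0242) also passed. ACVR2A lost its call without HT1376 CT library 11 or 13 or HT1376 FOXP3 KO library 12 (log2 0.68 to 0.85, adjusted p = 0.0514 to 0.0579), and ACVR1B without any HT1376 CT library or HT1376 FOXP3 KO library 11 or 13 (log2 -0.57 to -0.41, adjusted p = 0.0507 to 0.104). Among SMADs and cofactors, 3 of 12 were higher and 2 lower untreated (median 0.06), and 4 and 1 of 13 under IFNγ. SMAD9, a BMP-pathway SMAD, was 18.7-fold higher at a low level (8.17 against 0.476 normalized CPM, adjusted p = 0.000416). Its untreated HT1376 FOXP3 KO libraries ran from 2.76 to 14.6. SMAD4, the common partner, was 1.53-fold higher (adjusted p = 0.00195) and FOXO3, a forkhead factor that can act with SMADs, 2.16-fold lower (adjusted p = 0.000257). The coactivator CREBBP was 1.34-fold higher (adjusted p = 0.0124). SMAD2, the partner of SMAD3, was 1.27-fold lower (adjusted p = 0.0243), a call lost when any 1 of the 6 libraries was left out (log2 -0.35 to -0.26, adjusted p = 0.0585 to 0.115).

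Of the list of inhibitors of the pathway, 5 of 15 were higher and 8 lower untreated (median -0.34), and 5 and 6 of 16 under IFNγ. Decorin (DCN), a proteoglycan that binds TGF-β and is also one of the fibroblast markers above, was 118-fold higher (106 against 1.01 normalized CPM, adjusted p = 1.65e-07). SMAD6, the BMP-selective inhibitory SMAD, was 17.2-fold higher (10.3 against 0.653 normalized CPM, adjusted p = 1.83e-05). USP15, a deubiquitinase counted in this list although it is not an inhibitor of TGF-β signalling, was 1.53-fold higher (adjusted p = 0.00178). FSTL3, a follistatin-like activin antagonist, was 3.95-fold higher (log2 1.98, adjusted p = 0.0284), but at log2 0.63 (adjusted p = 0.0612) without HT1376 FOXP3 KO library 12, and its call was also lost without any 1 HT1376 CT library (log2 1.81 to 2.23, adjusted p = 0.066 to 0.0947), by DESeq2 and with all 12 libraries in 1 fit (adjusted p = 0.0614 and 0.0647). PMEPA1, a feedback inhibitor that TGF-β induces, was 38.5-fold lower (0.455 against 17.0 normalized CPM, adjusted p = 0.000165), the BMP antagonist NOG 9.02-fold lower (adjusted p = 0.00102), the repressor TGIF2 4.74-fold lower (adjusted p = 0.000474) and the ubiquitin ligase NEDD4L 3.76-fold lower (adjusted p = 1.47e-06).

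Of 39 known TGF-β targets tested, 8 were higher and 18 lower in untreated HT1376 FOXP3 KO (median -0.50), and 8 and 14 of 38 under IFNγ (median -0.46). The ID genes, which BMP signalling induces and TGF-β represses in many epithelial cells, were higher: ID2 11.0-fold (adjusted p = 2.38e-06), ID1 6.40-fold (adjusted p = 3.75e-06) and ID3 4.34-fold (adjusted p = 3.54e-05). The EMT-linked genes HMGA2 (0.226 against 244 normalized CPM, adjusted p = 1.43e-08), TNC (11.0 against 449, adjusted p = 8.11e-05) and SNAI1 (0.121 against 1.37, adjusted p = 0.00176) were lower. Other genes linked to EMT and matrix were higher. SPARC, a matrix glycoprotein, was 10.5-fold higher at a low level (2.23 against 0.222 normalized CPM, adjusted p = 0.00297). Fibronectin (FN1) was 3.34-fold higher untreated (3185 against 966 normalized CPM, adjusted p = 0.0277) and 6.47-fold higher under IFNγ (3064 against 489, adjusted p = 0.00249). TAGLN, an actin-binding protein of smooth muscle, was 4.03-fold higher untreated (6.23 against 1.53, adjusted p = 0.0012) and 4.92-fold higher under IFNγ (adjusted p = 0.00383). The untreated values of FN1 and TAGLN were added after their values were seen. The fibroblast markers and the epithelial markers CDH1 and EPCAM differed between the same lines, as given above, and their part here was not tested. Between the untreated lines TGFBI and SMAD7 were thus higher while PMEPA1, TNC and HMGA2 were lower. The members of this list were chosen as targets in other cell types and do not all respond in every epithelium.

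Of the other ligands of the superfamily, 3 of 15 were higher and 7 lower untreated (median -0.89), and 4 and 5 of 15 under IFNγ. BMP6 was 9.34-fold (adjusted p = 5.89e-06) and BMP7 5.78-fold higher (adjusted p = 0.000281). INHBA, the subunit of activin A, was 17.6-fold lower (3.96 against 66.6 normalized CPM, adjusted p = 1.91e-05). BMP2 was 15.9-fold lower at a low level (0.274 against 3.94, adjusted p = 0.000143), INHBB 2.78-fold lower (adjusted p = 0.00543) and GDF15 2.37-fold lower (adjusted p = 0.000742). INHA, the inhibin α subunit, was 2.38-fold higher (adjusted p = 0.038), a call lost without HT1376 CT library 11 or 13 or HT1376 FOXP3 KO library 11 or 12 (log2 0.89 to 1.39, adjusted p = 0.0636 to 0.125) and with all 12 libraries in 1 fit (adjusted p = 0.0654).

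Under IFNγ the genes with the largest differences between the lines were mostly those named above. Added to them were FST (follistatin, 0.0989 against 14.7 normalized CPM, adjusted p = 1.29e-06) and the EMT factor ZEB1 (0.284 against 3.73, adjusted p = 0.000984), both lower in HT1376 FOXP3 KO. The BMP receptor BMPR1A was 1.45-fold higher (adjusted p = 0.0101) and the phosphatase PPM1A 1.43-fold higher (adjusted p = 0.008). LTBP3 (1.56-fold), ZFYVE9 (1.56-fold) and GDF11 (2.15-fold) were higher and ACVR1 (1.82-fold) and BMP1 (1.59-fold) lower, with adjusted p = 0.026, 0.0135, 0.0156, 0.00915 and 0.0478, and each of these 5 lost its call when at least 1 of the libraries was left out.

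With IFNγ, the lists of HT1376 CT changed at 0 higher and 2 lower of 14 for latency and activation, 2 higher of 16 for the inhibitors, 3 higher and 1 lower of 38 for the targets and 1 lower of 15 for the other ligands, and none of the other receptors or SMADs passed. Over all genes 3.53% rose and 1.82% fell. COL4A1, a basement membrane collagen, rose from 0.111 to 8.36 normalized CPM (log2 5.99 ± 0.54, adjusted p = 3.3e-05) and ACTA2, smooth muscle actin, from 0.56 to 4.42 (log2 3.0 ± 0.44, adjusted p = 0.0015). ZEB1 rose from 0.797 to 3.73 (log2 2.31 ± 0.48, adjusted p = 0.0153), a call lost without untreated library 13 (2.16, adjusted p = 0.087) or IFNγ library 13 (1.63, adjusted p = 0.159). The collagen COL1A1 fell from 28.8 to 17.1 (log2 -0.73 ± 0.15, adjusted p = 0.0147), a call lost without untreated library 13 or IFNγ library 11 or 13 (log2 -0.77 to -0.65, adjusted p = 0.0523 to 0.0852). GDF11 fell from 9.2 to 3.9 (log2 -1.28 ± 0.27, adjusted p = 0.0151), a call lost without untreated library 11 or 13 or IFNγ library 13 (log2 -1.30 to -1.04, adjusted p = 0.0604 to 0.0881). THBS1 fell from 921 to 420 normalized CPM (log2 -1.11 ± 0.25, adjusted p = 0.0256), a call that was lost without untreated library 11 (log2 -1.10, adjusted p = 0.0706), without untreated library 13 (-0.88, 0.118) and with all 12 libraries in 1 fit (-1.13, 0.184). The integrin subunit ITGAV fell 1.42-fold (adjusted p = 0.0205). From the list of inhibitors, the ubiquitin ligase SMURF1 and the deubiquitinase USP15 each rose 1.45-fold (adjusted p = 0.0354 and 0.0159). Each of these 3 calls was lost when any 1 of 4 libraries was left out (adjusted p = 0.0705 to 0.106 for ITGAV, 0.0545 to 0.153 for SMURF1 and 0.0536 to 0.0891 for USP15). In HT1376 FOXP3 KO no gene of the 6 lists passed by edgeR's quasi-likelihood test, where 0.978% of all genes rose and 0.00414% fell. ACTA2 and COL4A1, looked at here because they rose in HT1376 CT, did not pass in this line. Their IFNγ libraries lay above the untreated ones without overlap, at low levels. Of the 37 known targets tested in this line, 5 had groups that did not overlap. The share over all genes was not computed, so this separation is not read as a response. ACTA2 had 0.624 to 1.32 normalized CPM untreated and 2.58 to 3.54 with IFNγ. COL4A1 had 0 to 0.3 untreated and 1.14 to 1.4 with IFNγ.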

How the data were processed

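RNA of 12 HT1376 libraries (KAPA RNA HyperPrep with RiboErase) was aligned by the authors with STAR 2.7.11a (submitters' processing notes) to GRCh38 with Ensembl 103, Mycoplasma reads were removed with Kraken, and htseq-count counts per gene were deposited as whole numbers, without normalization. The strand setting and the handling of ambiguous reads are not given in the sources used here, so overlapping and antisense genes are uncertain. Groups and replicate numbers follow the labels. Nothing in the labels says that libraries came from separate cultures, so p-values measure the spread between these libraries. None of the pairs within a group was a copy.

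Each pair of groups was fitted with edgeR 4.0.16 (quasi-likelihood test, R 4.3.3) on its 6 libraries, with TMM normalization, a minimum total of 10 counts per gene, and Benjamini-Hochberg adjustment over all genes tested, called under 0.05. The interaction used all 12 libraries. DESeq2 1.42.0, another normalization, other filters, the bias-adjusted deviance, a replicate block, all libraries in 1 fit, an added fold change threshold of 1 (log2) and leaving out libraries were alternatives. The block with the bias-adjusted deviance was added after the values were seen. The scripts were tested on simulated data. TPM used exon lengths of GENCODE 44, found for 60437 of the 60666 genes and for all 9 members. The length of a gene was the union of its exons over all annotated transcripts. How the order of the genes depends on this choice was not tested.

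The members and lists were chosen with earlier results of these data known. All 9 members are named in every comparison. Of a list, up to 4 called genes per direction with the largest fold changes are named, if the groups do not overlap and each group has a library with over 3 counts. Same-numbered libraries deviated together from their group means across 15677 genes with a mean of at least 1 normalized CPM (r of 0.321 to 0.382 within HT1376 CT, 0.428 to 0.564 within HT1376 FOXP3 KO and 0.126 to 0.338 between the lines, against -0.441 to 0.161 for different numbers). Over all 27806 genes r between the lines was 0.0471 to 0.136. The pairing was taken from these correlations and not from the labels, and a blocked value is given where it changes a call. Depth, from 4490684 to 39270042 counts (median 15551201.5), limits TGFB3 and TGFBR2 most.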

Additional observations from a re-analysis of the deposited data

Results flagged for a closer look

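Among the named genes, IRF1, an early IFNγ-induced transcription factor, passed the test of whether line and IFNγ interact. It rose from 62.8 ± 5.42 to 878 ± 27.9 normalized CPM (SD, n = 3) in HT1376 CT and from 51.0 ± 5.11 to 378 ± 9.94 in HT1376 FOXP3 KO, an interaction of -0.93 ± 0.15 on the log2 scale (adjusted p = 0.0171, edgeR), and this call was lost when any 1 of 8 libraries was left out (adjusted p = 0.0564 to 0.101).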

How the results depend on the processing

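The differences of TGFB1, TGFBR2, TGFBR3 and TGFBI between the lines in both conditions, of TGFB2 and SMAD7 between the untreated lines and of TGFB2 with IFNγ in HT1376 CT passed under each alternative run and without any 1 library, except TGFB2 and SMAD7 under the added threshold on fold change. With the replicate block, added calls were SMAD7 between the lines under IFNγ (0.75), TGFBR3 and TGFBI with IFNγ in HT1376 CT (-0.77 and -0.96) and TGFB2 and TGFBI in the interaction (1.03 and 1.08), and it changed no other call of the 9. The pairing block also raised the number of all genes called to 4530 with 3 members (4102 with 3 when the bias-adjusted deviance was used as well) for IFNγ in HT1376 CT, to 1334 (1027) for IFNγ in HT1376 FOXP3 KO and to 336 with 2 members (230 with 1) for the interaction. Requiring an absolute log2 fold change over 1 as well left 4944 genes and 4 members between the untreated lines, 4625 under IFNγ, and 679 and 0 for IFNγ in HT1376 CT. Without the filter, IFNγ in HT1376 CT gave 2248 genes and 3 members and the interaction 294 and 3. DESeq2 gave 2 members for IFNγ in HT1376 CT and 160 genes with 1 member for the interaction. RLE size factors and filterByExpr each called 1 member in the interaction. Without every library numbered 12, IFNγ in HT1376 CT called 2 members and the interaction 49 genes and 1 member. Leaving out 1 library gave 5834 to 7736 genes (6 to 7 members) between the untreated lines, 5031 to 6779 (4 to 7) under IFNγ, 761 to 1201 (1 to 2) for IFNγ in HT1376 CT, 161 to 207 (0) for IFNγ in HT1376 FOXP3 KO and 15 to 33 (0 to 1) for the interaction. Values that changed sign were never called: for IFNγ in HT1376 CT, SMAD7 (-0.0153 with the block and -0.0555 without number 12), and in the interaction TGFBR2 (-0.000135 with RLE, -0.0251 with the bias-adjusted deviance, -0.43 with the block, -0.46 with both and -0.0217 without number 12) and TGFBR1 (0.0064 without the filter and 0.0054 with filterByExpr). The main interaction value of TGFBR2 was 0.02 ± 3.41 SE. Without 1 library the uncalled log2 fold changes that changed sign spanned, between the untreated lines, -0.37 to 0.91 (TGFB3) and -0.31 to 0.12 (SMAD3). For IFNγ in HT1376 CT they spanned -0.24 to 0.0496 (TGFBR1), -1.33 to 0.78 (TGFBR2) and -0.23 to 0.30 (SMAD7). For IFNγ in HT1376 FOXP3 KO they spanned -1.42 to 0.26 (TGFB3), -0.74 to 0.30 (TGFBR2), -0.12 to 0.29 (TGFBR3), -0.32 to 0.24 (SMAD3), -0.25 to 0.0575 (SMAD7) and -0.54 to 0.83 (TGFBI). For the interaction they spanned -0.12 to 0.15 (TGFBR1), -0.92 to 1.17 (TGFBR2), -0.38 to 0.17 (SMAD3) and -0.37 to 0.19 (SMAD7). The cause of these changes was not tested.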
